A study of Mus musculus with 15 samples.

Results

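The 9 genes described here, Ager, Pdpn, Hopx, Rtkn2, Akap5, Clic5, Emp2, Cav1 and Cav2, are commonly used to mark alveolar type 1 cells. Their values were read from every probe set that the array annotation gave to a single member gene, which were 19 probe sets among 34945 single-gene probe sets for 18193 genes. All 19 exceeded the signal limit for testing, a mean of 100 over all 15 arrays. However, 2 dim ones, Clic5 1431261_at and Cav2 1425955_at, averaged below 100 in dysplasia and passed the limit through the control tissues. The study compared laser-microdissected mouse lung on 15 arrays, 5 per group. Dysplasia was cut from lesions of SP-C/c-raf mice aged 5 to 7 months, transgenic tissue was the unaltered lung of such dysplasia-bearing SP-C/c-raf mice of the same age range, and non-transgenic tissue came from littermates without the transgene, aged 7 to 10 months. All mice were on a C57BL/6 background. The c-raf transgene is driven by the surfactant protein C promoter, which is active in alveolar type 2 cells and not in mature type 1 cells, and each sample was tissue pooled from 1 layer of 1 animal. Age and genotype cannot be told apart in either comparison with non-transgenic lung.

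Alveolar type 1 cells are the flat epithelial cells that cover most of the gas exchange surface, where their thin extensions lie against the capillary endothelium over a shared basement membrane. They arise from alveolar type 2 cells, the cuboidal makers of surfactant, after injury and during growth. Several of their markers are shared: Cav1 and Cav2 are abundant in endothelium, Clic5 and Akap5 occur in other cell types, and Pdpn also marks mesothelium and lymphatic endothelium. In tissue pieces of this kind, fewer cells of a type and less RNA per cell cannot be told apart.

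The array values are scaled intensities, called signal here, with a trimmed mean of 500 on each array. Between 44.1% and 49.9% of probe sets had a signal over 100 on an array. The 5′ over 3′ signal ratio of actin, a measure of how long the labelled RNA fragments were, ran from 12.5% to 75.2% and was lowest on array 5 of every group. Signal of Xist, which is transcribed in females, was at least 9674 on dysplasia arrays 3 and 4, transgenic array 3 and non-transgenic arrays 2 to 5. By this signal sex was unbalanced, along with age and genotype, in both comparisons with non-transgenic lung. Dysplasia array 4 had an Xist signal of 9674 together with a signal of 494.6 for the Y-linked Eif2s3y, whereas transgenic array 4 had 85.0 and 1567, so the number 4 pair goes against the statement in the labels that both tissues came from the same mouse. The title of transgenic array 2 calls it unaltered, while another entry of its labels calls it tumor. Marker tests that changed without these libraries are given with and without them. The comparison lists, summed signals, correlations, replicate block and within-number values were computed only with them included.

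Dysplasia had lower signal of most markers than either control tissue, but not of all. Against transgenic tissue, 12 of the 19 probe sets, or 63.2%, were lower and none was higher by limma at an adjusted p under 0.05. Over all 21658 probe sets tested, 17.9% were lower and 15.3% higher. In this fit, which did not pair the arrays, the lower probe sets belonged to Hopx, Rtkn2, Akap5, Clic5, Cav1 and Cav2. Those of Ager, Pdpn and Emp2 did not pass. Among the 17 probe sets that averaged above 100 in dysplasia itself, 10 were lower against transgenic and 11 against non-transgenic tissue. The lower share of all probe sets that averaged above 100 in dysplasia was not counted, so these counts have no matching background. With the array number as a replicate block, 15 of the 19 were lower against transgenic tissue, beside 10661 of all 21658 called in either direction. How many of the latter were lower was not counted. Pdpn and Emp2 1433670_at then passed (limma adjusted p = 0.00562 and 0.0247), and Ager did not. The block kept the number 4 arrays as a pair, which their Xist and Eif2s3y signals go against, and it was not run without them. The median log2 change of the 19 was -0.65, beside -0.01 for all probe sets tested. Against non-transgenic tissue, 12 probe sets were again lower and none higher, with a median log2 change of -0.69 beside -0.03 for all tested, of which 23.3% were lower and 20.7% higher. There Emp2 joined the 6 genes with a lower probe set, which left Ager and Pdpn. Both comparisons use the same dysplasia arrays and are not independent of each other. Every dysplasia array lay below every transgenic array in 5 marker probe sets, where 13.6% of all tested did so, and below every non-transgenic array in 9, where 17.5% did so. The dim Cav2 1425955_at was among them in both comparisons, although it passed the signal limit only through the control tissues.

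**Figure D1:**
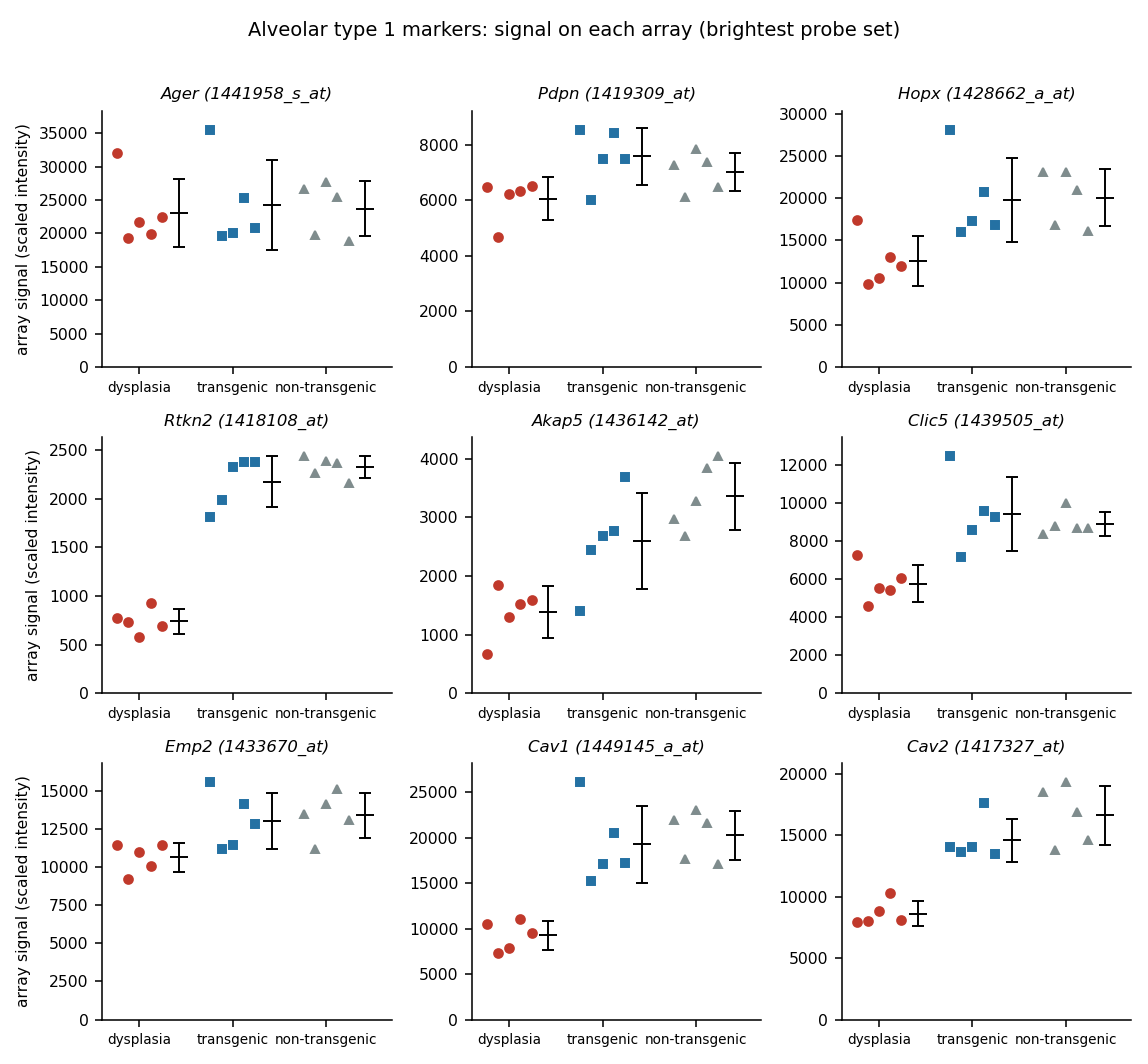
Signal (scaled intensity, linear axis from 0) on each array for the brightest probe set of each marker, as points for the 5 dysplasia, 5 transgenic and 5 non-transgenic arrays in order of array number, with the mean and SD in black. The groups overlap fully for Ager, while all dysplasia points of Rtkn2, Cav1 and Cav2 lie below every point of both control tissues.

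The promoters of 3 markers are shown because Ager passed no test while Cav1 and Cav2, 2 genes on chromosome 6, were lower on every dysplasia array. RefSeq (GRCm38.p6) gave promoters of 300 bases, 250 before to 50 after the start of transcription, for 8 of the 9 genes, 10 promoters in all. Capitals mark GGGCGG or its reverse complement CCGCCC, the core of an SP1 motif, and TATAAA or its reverse complement TTTATA, the core of a TATA box. Ager lies at chr17:34597600-34597899 on the plus strand, Cav1 at chr6:17306085-17306384 on the plus strand (the first of its 2 promoters) and Cav2 at chr6:17280935-17281234 on the plus strand.
Ager: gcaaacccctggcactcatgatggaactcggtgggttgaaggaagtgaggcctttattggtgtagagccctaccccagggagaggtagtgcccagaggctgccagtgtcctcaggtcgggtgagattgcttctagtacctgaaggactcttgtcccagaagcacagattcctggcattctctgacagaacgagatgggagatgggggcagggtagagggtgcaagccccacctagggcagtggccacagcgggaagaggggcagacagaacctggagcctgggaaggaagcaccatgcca
Cav1: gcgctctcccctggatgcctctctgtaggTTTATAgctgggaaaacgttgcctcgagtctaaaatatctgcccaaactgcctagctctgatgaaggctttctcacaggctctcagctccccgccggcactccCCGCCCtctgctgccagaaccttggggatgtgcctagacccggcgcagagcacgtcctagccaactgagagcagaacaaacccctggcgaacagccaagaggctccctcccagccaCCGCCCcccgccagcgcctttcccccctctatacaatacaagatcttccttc
Cav2: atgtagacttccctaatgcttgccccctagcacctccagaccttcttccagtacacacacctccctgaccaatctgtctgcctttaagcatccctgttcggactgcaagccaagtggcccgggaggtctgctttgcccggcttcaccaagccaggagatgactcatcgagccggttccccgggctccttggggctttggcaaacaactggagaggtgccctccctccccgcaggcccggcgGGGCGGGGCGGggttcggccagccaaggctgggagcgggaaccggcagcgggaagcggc
The Ager promoter held neither motif. That of Cav1 held 2 matches to the SP1 core and 1 to the TATA core, and that of Cav2 held 2 to the SP1 core that share bases. The SP1 core was found in 35.7% and the TATA core in 13.6% of 32851 RefSeq promoters of this length. GGAATG, the core bound by the Tead partners of Yap and Taz, was found on either strand in 14.7% of all promoters and in 0 of the 10 here. CACTTGA, an Nkx2-1 core, was found in 3.06% of all promoters and in 1 of the 10, the second promoter of Hopx, 285 bases from its left end. These matches describe letters in this window and say nothing of binding.

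Ager, the receptor for advanced glycation end products that type 1 cells carry on their basal membrane, was among the brightest signals on every array. Its probe set 1441958_s_at ranked between 6 and 35 of 45037. Its signal was 31960, 19326, 21684, 19834 and 22501 in dysplasia 1 to 5. It was 35507, 19538, 20117, 25349 and 20736 in transgenic 1 to 5, and 26673, 19741, 27754, 25461 and 18837 in non-transgenic 1 to 5. The groups overlapped fully, and array 1 was the highest in both tissues of transgenic mice. The means were 23060 ± 5142, 24250 ± 6700 and 23690 ± 4114 (SD, n = 5 each). The log2 change was -0.06 against transgenic tissue (SE 0.189, limma adjusted p = 0.856) and -0.05 against non-transgenic tissue (SE 0.163, limma adjusted p = 0.85). The 95% intervals of the changes allow dysplasia to hold 72% to 128% of the transgenic and 75.6% to 124% of the non-transgenic level. The second probe set, 1420428_at, gave log2 changes of -0.10 and -0.01, with limma adjusted p-values of 0.659 and 0.961. Neither probe set of Ager passed the test under any of 24 alternatives in each comparison. Because this probe set lay near the top of the signal scale, the 208 probe sets with a mean above 15000 were counted as well. Against transgenic tissue 12 of them, or 5.77%, were lower and 4, or 1.92%, higher, smaller shares than the 17.9% and 15.3% of all probe sets tested. Their log2 changes ran from -1.05 to 1.35, and Hopx and Cav1 were among those lower. The signal of 1441958_s_at was 76.5% to 92.4% of the highest signal on its array, and that of 1420428_at was 37.6% to 51.5%. A missed threshold at such signals does not show that the Ager RNA was equal.

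Pdpn encodes podoplanin, a sialylated surface glycoprotein of the apical membrane of type 1 cells. Its signal was 6481, 4689, 6242, 6342 and 6509 in dysplasia 1 to 5. It was 8538, 5994, 7482, 8432 and 7485 in transgenic 1 to 5, and 7258, 6131, 7848, 7372 and 6484 in non-transgenic 1 to 5. Dysplasia array 2 was lowest of all, and array 2 was the lowest in every group. The means were 6053 ± 770.1, 7586 ± 1022 and 7019 ± 697.1 (SD, n = 5 each). Its log2 change was -0.32 against transgenic tissue (SE 0.129, limma adjusted p = 0.0775) and -0.22 against non-transgenic tissue (SE 0.115, limma adjusted p = 0.154). Within each number, dysplasia had 75.2% to 87% of the transgenic signal, below 100% in all 5. With the array number as a replicate block the first difference passed (limma adjusted p = 0.00562). It also passed with transgenic array 2 left out (log2 change -0.40, limma adjusted p = 0.027) and with dysplasia 4 and transgenic 2 left out (-0.42, limma adjusted p = 0.0396).

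Hopx encodes a small homeodomain protein that does not itself bind DNA and acts with other regulators of transcription. The signal of 1428662_a_at was 17356, 9829, 10510, 13014 and 11933 in dysplasia 1 to 5. It was 28078, 16029, 17284, 20758 and 16749 in transgenic 1 to 5, and 23054, 16836, 23123, 20945 and 16077 in non-transgenic 1 to 5. Dysplasia array 1 alone reached into the range of the control arrays, and the other four lay below all of them. The means were 12530 ± 2969, 19780 ± 4982 and 20010 ± 3368 (SD, n = 5 each). Its change on the log2 scale was -0.65 against transgenic tissue (SE 0.188, limma adjusted p = 0.0195) and -0.69 against non-transgenic tissue (SE 0.168, limma adjusted p = 0.00644). Within each number dysplasia had 60.8% to 71.2% of the transgenic signal. The dimmer probe set 1451776_s_at had means of 3297 ± 1376, 7312 ± 3251 and 6968 ± 2656 (SD, n = 5 each) and log2 changes of -1.13 and -1.07 (limma adjusted p = 0.0229 and 0.0248). Its first call was lost without dysplasia 3 (limma adjusted p = 0.0565), dysplasia 5 (0.0541) or transgenic 4 (0.0539), and without dysplasia 4 and transgenic 2 together (0.0592). Its second call was lost without dysplasia 3 (limma adjusted p = 0.0596), dysplasia 5 (0.0584), non-transgenic 1 (0.0603) or non-transgenic 3 (0.0554).

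On the log2(signal + 50) scale, Rtkn2 showed the lowest change of the 19 probe sets in both comparisons with dysplasia. With no offset the dim Cav2 probe set 1425955_at was lower against non-transgenic tissue, at -1.80 beside -1.67 for Rtkn2. Its signal (1418108_at) was 777, 730, 578, 925 and 691 in dysplasia 1 to 5. It was 1808, 1986, 2329, 2376 and 2383 in transgenic 1 to 5, and 2440, 2263, 2387, 2372 and 2162 in non-transgenic 1 to 5. All dysplasia arrays lay below all others, with no overlap. The means were 740.2 ± 127.1, 2176 ± 263.5 and 2325 ± 111.5 (SD, n = 5 each). The log2 change of this gene was -1.50 against transgenic tissue (SE 0.131, limma adjusted p = 1.14e-05) and -1.60 against non-transgenic tissue (SE 0.113, limma adjusted p = 1.36e-06). Within each number dysplasia had 24.8% to 43% of the transgenic signal.

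Akap5 encodes an A-kinase anchoring protein, a scaffold that holds protein kinase A and calcineurin at the plasma membrane. The signal of its brightest probe set, 1436142_at, was 666, 1841, 1301, 1517 and 1596 in dysplasia 1 to 5. It was 1405, 2445, 2691, 2777 and 3698 in transgenic 1 to 5, and 2970, 2691, 3277, 3837 and 4048 in non-transgenic 1 to 5. Dysplasia lay below every non-transgenic array but overlapped transgenic array 1, and array 1 was low in both tissues of transgenic mice. The means were 1384 ± 445.4, 2603 ± 821.1 and 3365 ± 571.8 (SD, n = 5 each). The log2 change was -0.90 against transgenic tissue (SE 0.29, limma adjusted p = 0.0338) and -1.31 against non-transgenic tissue (SE 0.238, limma adjusted p = 0.000988). The first call was lost, with limma adjusted p-values of 0.0568 to 0.0794, when dysplasia 1 or 3 or transgenic 2, 3, 4 or 5 was left out, at 0.0766 without dysplasia 4 and transgenic 2, and at 0.0885 without the number 5 arrays. The probe sets 1447301_at and 1431717_at gave log2 changes of -1.15 and -0.69 against transgenic tissue (limma adjusted p = 0.00297 and 0.00999) and of -1.41 and -1.01 against non-transgenic tissue (limma adjusted p = 4.24e-05 and 0.00346). All 3 probe sets were thus lower in both comparisons, although 1431717_at missed the threshold against transgenic tissue without the number 5 arrays (limma adjusted p = 0.0509).

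Clic5, a chloride intracellular channel family protein that links membrane and actin through ezrin and related proteins, had 4 probe sets. They did not vary alike between arrays. After removal of the group means, 1456873_at correlated at 0.165 with 1439505_at, -0.691 with 1458381_at and -0.485 with 1431261_at (Pearson r, 15 arrays). The values of 1439505_at were -0.212 with 1458381_at and -0.243 with 1431261_at, and those last named correlated at 0.691 with each other. The signal of 1456873_at was 6290, 5457, 5742, 5694 and 5859 in dysplasia 1 to 5. It was 7900, 8024, 8796, 8425 and 9612 in transgenic 1 to 5, and 9488, 8022, 9468, 10247 and 9898 in non-transgenic 1 to 5. This probe set varied little within groups, and dysplasia lay below both control tissues on every array. The means were 5808 ± 306.3, 8551 ± 689.5 and 9425 ± 847.6 (SD, n = 5 each). Its log2 change was -0.55 against transgenic tissue (SE 0.0862, limma adjusted p = 0.00049) and -0.69 against non-transgenic tissue (SE 0.0883, limma adjusted p = 7.91e-05). The probe set 1439505_at had means of 5758 ± 977, 9409 ± 1951 and 8900 ± 631.7 (SD, n = 5 each), with log2 changes of -0.70 and -0.64 (limma adjusted p = 0.00547 and 0.00113). The other two were dimmer and did not pass in every comparison. The values of 1458381_at were -0.45 and -0.38 (limma adjusted p = 0.111 and 0.151), and with the array number as a replicate block the first passed (limma adjusted p = 0.00123). It also passed without dysplasia 2 in both comparisons (limma adjusted p = 0.0318 and 0.0441). The values of 1431261_at, whose group means were 93.2, 152.4 and 142.7, were -0.52 and -0.43 (limma adjusted p = 0.0181 and 0.0772). This probe set was tested only because the control tissues brought it over the signal limit. Its first call was lost without dysplasia 4 and transgenic 2 (limma adjusted p = 0.0914), and the second difference passed without dysplasia 2 (0.0235) or non-transgenic 5 (0.0288).

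Emp2, a tetraspan membrane protein of the PMP22 family, was measured by 3 probe sets that did not behave alike. The signal of 1433670_at was 11467, 9246, 11004, 10084 and 11431 in dysplasia 1 to 5. It was 15570, 11164, 11440, 14118 and 12824 in transgenic 1 to 5, and 13481, 11180, 14174, 15163 and 13095 in non-transgenic 1 to 5. Dysplasia was low but overlapped both control tissues. The means were 10650 ± 961.2, 13020 ± 1850 and 13420 ± 1478 (SD, n = 5 each). Its change on the log2 scale was -0.28 against transgenic tissue (SE 0.115, limma adjusted p = 0.0831) and -0.33 against non-transgenic tissue (SE 0.104, limma adjusted p = 0.0239). With the array number as a replicate block the first difference passed (limma adjusted p = 0.0247). The second call was lost without dysplasia 2 (limma adjusted p = 0.0511), dysplasia 4 (0.0515), non-transgenic 3 (0.0575) or non-transgenic 4 (0.0621).

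The signal of Emp2 probe set 1425272_at varied with the array number in every group. It was 7850, 8323, 2022, 4806 and 1285 in dysplasia 1 to 5. It was 10229, 8066, 2644, 5372 and 1489 in transgenic 1 to 5, and 9362, 10748, 3453, 3630 and 1493 in non-transgenic 1 to 5. In each group arrays 1 and 2 were the highest, in either order, array 4 came next, then array 3, and array 5 was the lowest. The highest signal was 6.48, 6.87 and 7.2 times the lowest in dysplasia, transgenic and non-transgenic tissue, whereas that of 1433670_at was 1.24, 1.39 and 1.36 times the lowest. The actin 5′ over 3′ ratio of arrays 1 to 5 was 69.9%, 75.2%, 28.9%, 57.1% and 25.1% in dysplasia, 46.3%, 63.4%, 38.9%, 36.1% and 12.5% in transgenic tissue, and 54.6%, 72.8%, 31%, 27.5% and 14.1% in non-transgenic tissue. Without the actin ratio the log2 changes of 1425272_at were -0.22 and -0.24 (limma adjusted p = 0.841 and 0.799). With the ratio as a covariate they were -0.75 and -0.84 (limma adjusted p = 0.0609 and 0.000335). The third probe set, 1425273_s_at, moved from -0.39 and -0.68 (limma adjusted p = 0.552 and 0.189) to -0.74 and -0.96 (limma adjusted p = 0.0362 and 0.00941), and its second difference also passed without non-transgenic 5 (limma adjusted p = 0.039). Ager was at -0.09 and -0.07 with the same covariate (limma adjusted p = 0.765 and 0.748).

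**Figure D2:**
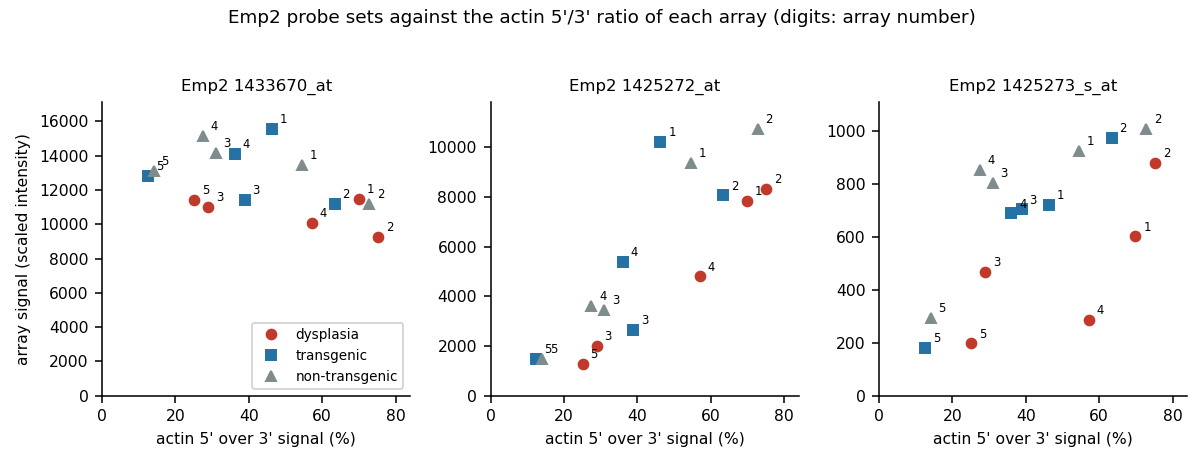
Signal of the 3 Emp2 probe sets (scaled intensity, linear axis from 0) against the actin 5′ over 3′ ratio (%) of the same array, 1 point per array with its number. The signal of 1425272_at was low on arrays 3 and 5, where the ratio was at most 38.9%, in all 3 groups, while that of 1433670_at stayed between 9246 and 15570. The ratio was also below 38.9% on transgenic 4 (36.1%) and non-transgenic 4 (27.5%), where the signal of 1425272_at was 5372 and 3630.

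Cav1 and Cav2 encode caveolins, the membrane proteins that form caveolae, and caveolin 2 reaches the cell surface together with caveolin 1. The signal of Cav1 (1449145_a_at) was 10543, 7368, 7905, 11076 and 9461 in dysplasia 1 to 5. It was 26060, 15270, 17101, 20540 and 17199 in transgenic 1 to 5, and 21889, 17650, 23058, 21636 and 17138 in non-transgenic 1 to 5. The groups did not overlap: the highest dysplasia array was below the lowest control array. The means were 9271 ± 1613, 19230 ± 4264 and 20270 ± 2690 (SD, n = 5 each). The log2 change of this gene was -1.04 against transgenic tissue (SE 0.165, limma adjusted p = 0.000539) and -1.13 against non-transgenic tissue (SE 0.139, limma adjusted p = 5.92e-05).

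The signal of Cav2 (1417327_at) was 7927, 7989, 8804, 10311 and 8079 in dysplasia 1 to 5. It was 14036, 13657, 14095, 17665 and 13475 in transgenic 1 to 5, and 18496, 13802, 19321, 16930 and 14612 in non-transgenic 1 to 5. Again no dysplasia array reached the lowest control array. The means were 8622 ± 1008, 14590 ± 1741 and 16630 ± 2392 (SD, n = 5 each), with log2 changes of -0.75 (SE 0.11, limma adjusted p = 0.000316) and -0.94 (SE 0.12, limma adjusted p = 7.98e-05). The dim probe set 1425955_at, with means of 57.77, 158.6 and 198.9, gave -0.95 and -1.20 (limma adjusted p = 0.000488 and 5.7e-05), but it was tested only because the control tissues brought it over the signal limit. Within each number dysplasia had 40.5% to 55% of the transgenic Cav1 signal and 56.5% to 62.5% of that of Cav2 (1417327_at).

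**Figure D3:**
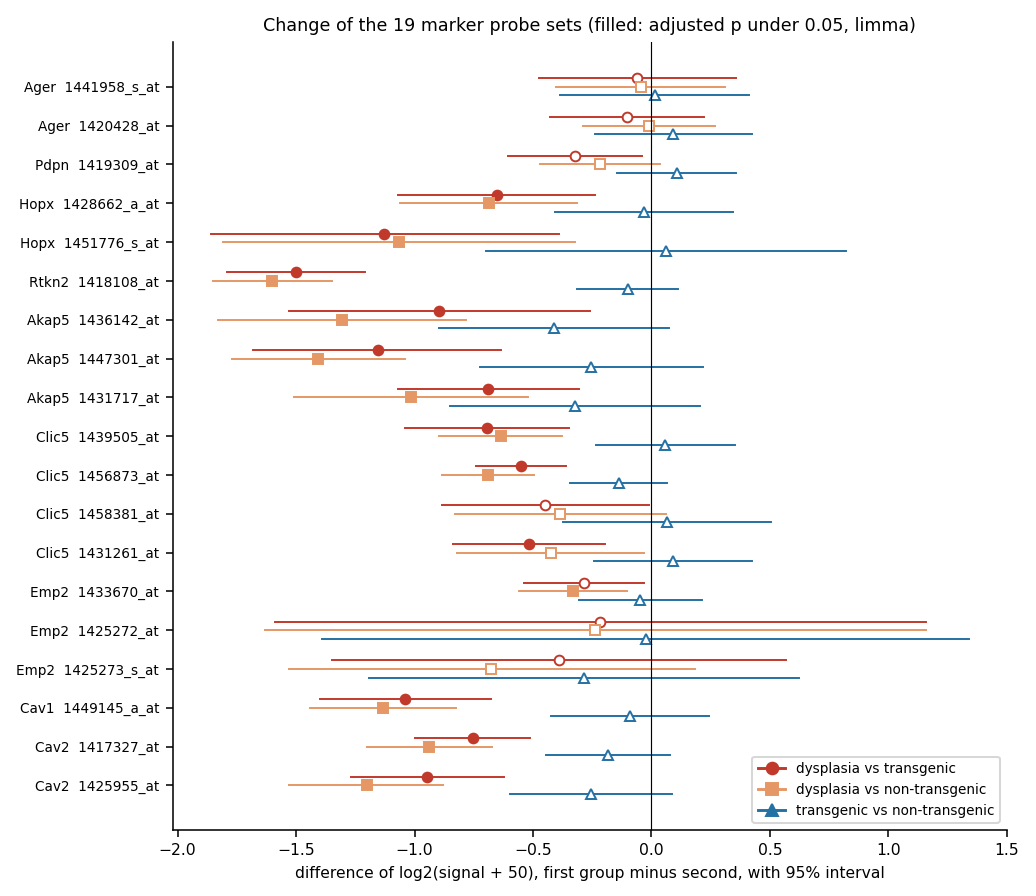
Difference of log2(signal + 50) between groups for the 19 marker probe sets, with 95% intervals, for dysplasia against transgenic, dysplasia against non-transgenic and transgenic against non-transgenic tissue; filled symbols had a limma adjusted p under 0.05. Both dysplasia comparisons lie left of 0 for all 19, from -0.06 for Ager to -1.50 for Rtkn2 against transgenic tissue, and no symbol is filled for transgenic against non-transgenic tissue.

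No marker passed the test between unaltered transgenic and non-transgenic lung. None of the 19 probe sets had an adjusted p under 0.05 by limma, where 1.26% of all tested did in either direction, and none had an unadjusted p under 0.05. The log2 changes ran from -0.41 for Akap5 (1436142_at, SE 0.221, limma adjusted p = 0.505) to 0.11 for Pdpn (SE 0.115, limma adjusted p = 0.792). For Rtkn2 the value was -0.10, with a 95% interval narrow enough to keep transgenic tissue between 80.5% and 108% of the non-transgenic level. The intervals were widest for Emp2 1425272_at, from -1.39 to 1.34.

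The signal of each marker was then set against that of Ager on the same array, as the log2 difference between the brightest probe set of each. This compares probe set signals, and since that of Ager lay near the top of the scale, a difference need not be one of the same size in RNA. The exact two-sided permutation test over the 10 arrays of a comparison, adjusted over 24 tests, cannot give a p below 0.00794. Against transgenic tissue, Rtkn2 fell by 1.44 on the log2 scale more than Ager, Cav1 by 0.98, Clic5 by 0.64 and Hopx by 0.59, each with an adjusted p = 0.019 by the exact permutation test. The difference was -0.70 for Cav2 (adjusted p = 0.0693, exact permutation), -0.84 for Akap5 (0.213), -0.26 for Pdpn (0.213) and -0.22 for Emp2 (0.178). Against non-transgenic tissue 6 markers passed: Rtkn2 (-1.56), Akap5 (-1.26), Cav1 (-1.09), Cav2 (-0.89), Hopx (-0.64) and Clic5 (-0.59), each with an adjusted p = 0.019 by the exact permutation test. Emp2 (-0.28, adjusted p = 0.0952) and Pdpn (-0.17, adjusted p = 0.331) did not, by the same exact test. Transgenic array 1, where Ager was highest, lay apart from the other transgenic arrays for Rtkn2, Akap5 and Cav2, and without it 7 markers instead of 4 passed against transgenic tissue. The highest signal of any probe set was 38441 on transgenic 1 and 41763 on dysplasia 1. On the other arrays of these groups it was 23623 to 30901. How far the differences from Ager follow this height of the signal scale was not tested. With dysplasia 4 and transgenic 2 left out 0 passed, in a design of 4 arrays against 4 where no p can be below 0.0286. Set against the dimmer Ager probe set 1420428_at, 5 markers passed against transgenic tissue, with differences of -1.40 for Rtkn2, -0.94 for Cav1, -0.65 for Cav2, -0.59 for Clic5 and -0.55 for Hopx (exact permutation, adjusted p = 0.0254 for Cav2 and 0.0173 for the others). Against non-transgenic tissue 7 passed, all but Pdpn. Between the control tissues 3 passed there, Cav1 (-0.18), Hopx (-0.12) and Cav2 (-0.28), where 0 did with the brighter probe set (exact permutation, adjusted p = 0.0173 for Cav1 and 0.0254 for the others).

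Within array numbers, the difference from Ager (1441958_s_at) was below 0 in 5 of 5 pairs of dysplasia and transgenic arrays for every one of the 8 other markers. The number 4 arrays were counted as a pair here, although their Xist and Eif2s3y signals go against it. The range over the pairs was -2.03 to -0.96 for Rtkn2, -1.30 to -0.38 for Akap5, -0.85 to -0.42 for Cav2, -0.37 to -0.06 for Pdpn and -0.29 to -0.13 for Emp2. The smallest p that sign flips over 5 pairs allow is 0.0625 (exact permutation within pairs), which all 8 reached, so no marker could pass by this test.

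**Figure D4:**
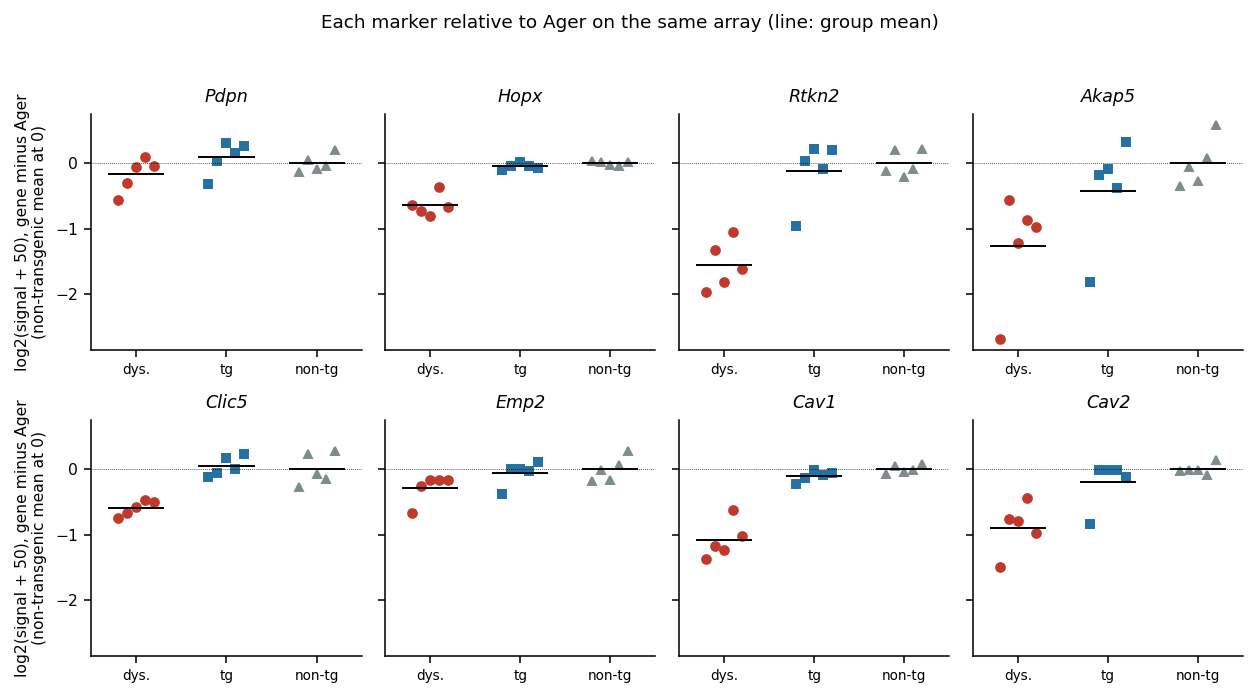
Log2(signal + 50) of each marker minus that of Ager on the same array, with the mean of the non-transgenic arrays set to 0; points are the arrays of dysplasia (dys.), transgenic (tg) and non-transgenic (non-tg) tissue and lines are group means. The dysplasia arrays of Hopx, Rtkn2, Clic5 and Cav1 lie below all others, and transgenic array 1 is the lowest of the transgenic arrays for Rtkn2, Akap5 and Cav2.

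The markers also differed in how they varied between arrays of 1 group. After removal of the group means, the signal of Ager correlated over the 15 arrays with that of Hopx (Pearson r = 0.945), Clic5 (0.823), Cav1 (0.815) and Emp2 (0.803), and inversely with that of Akap5 (-0.733). The correlation of Ager with Rtkn2 was -0.132 and with Cav2 0.272. These points share arrays, scaling and RNA quality, and the values are descriptions. The probe sets most like Ager were those of Lyz2 (0.995), which encodes lysozyme, and of the ribosomal protein genes Rps28 (0.994) and Rps7 (0.993). Those most like Hopx were Gsn (0.965), Cst3 (0.954) and Sftpc (0.951), and those most like Cav1 were Mettl7a1 (0.954), Srgn (0.951) and Inmt (0.932). With the group means kept, Rtkn2 was most like Gng2, Cdh5, the endothelial cadherin, and Fabp12 (0.992 each), Cav1 was most like Srgn (0.992), and Cav1 and Cav2 correlated at 0.923.

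Other genes known from alveolar type 1 cells moved in both directions. Of 30 listed, 29 were tested, and against transgenic tissue 14 were lower and 6 higher by limma, with a median log2 change of -0.47. Over all probe sets tested, 17.9% were lower and 15.3% higher. The lower genes included Igfbp2, an insulin-like growth factor binding protein (-2.71, limma adjusted p = 1.61e-05), Spock2, a matrix proteoglycan (-2.04, 2.54e-05), Sema3e, a semaphorin (-1.81, 2.65e-05), and Scnn1g, a sodium channel subunit (-1.34, 2.41e-05). Among the higher genes were the water channel gene Aqp5 (0.70, limma adjusted p = 0.00288) and the keratin gene Krt7 (0.98, 0.000501), chosen for mention after their values were seen. The summed signal of the 29 genes ran from 127200 to 152600 in dysplasia, from 124300 to 150300 in transgenic and from 136400 to 148400 in non-transgenic tissue, so the ranges of the sums overlapped. Of 11 tested markers of alveolar type 2 cells, 0 were lower and 0 higher against transgenic tissue (median 0.10), and 3 were higher against non-transgenic tissue. Of 11 genes known from the transitional epithelium between type 2 and type 1 cells, 8 were higher and 0 lower (median 1.30), among them Krt18 (2.15, limma adjusted p = 6.14e-07), Krt8 (1.37, 3.32e-06), Cldn4 (2.69, 1.27e-05) and Krt19 (1.36, 4.18e-05).

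Genes of the markers' own pathways moved in both directions against transgenic tissue, as did all probe sets tested, of which 17.9% were lower and 15.3% higher. Of 8 tested genes of the caveola coat, 4 were lower and 1 higher (median -0.48). The lower ones were Cavin1 (-0.80, limma adjusted p = 3.83e-05), Cavin2 (-1.28, 5.54e-05), Ehd1 (-1.21, 7.38e-05) and Ehd4 (-0.93, 0.00022). Of 10 tested ligands and partners of Ager and Pdpn, 3 were lower and 4 higher (median -0.17): the lower ones were S100a8 (-1.91, limma adjusted p = 6.45e-05), S100a9 (-1.97, 0.000124), both known from neutrophils, and Clec1b, the platelet receptor of podoplanin (-1.45, 1.14e-05), and S100a6 was among the higher (0.63, 0.000456). Of 20 tested relatives and partners of Clic5, Emp2, Rtkn2, Akap5 and Hopx, 6 were lower and 5 higher (median -0.12), with Rtkn, the paralogue of Rtkn2, at 1.35 (limma adjusted p = 2.6e-05), Clic6 at 1.48 (5.61e-05), Podxl at -1.53 (2.79e-05) and Pmp22 at -1.35 (6.55e-05). Of 14 tested regulators of alveolar cell fate, 4 were lower and 6 higher (median 0.16), with Klf5 at 1.31 (limma adjusted p = 5.14e-05), Cebpa at 1.01 (0.000113), Foxa1 at 0.78 (0.000209) and Lats2 at -1.17 (0.000684). Of 12 tested targets of Yap and Taz, 5 were lower and 1 higher (median -0.46), with Ankrd1 at -1.84 (limma adjusted p = 2.47e-05) and F3 at 1.53 (3.75e-05).

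Markers of endothelial and mesothelial cells were lower as well. Against transgenic tissue 17.9% of all probe sets tested were lower and 15.3% higher. All 23 endothelial markers were lower in dysplasia against transgenic tissue (median log2 change -1.60), and their summed signal ran from 37070 to 54440 in dysplasia, from 106100 to 137200 in transgenic and from 127600 to 157400 in non-transgenic tissue. Of 8 markers of lung capillary endothelium 7 were lower (median -1.53), of 4 tested lymphatic markers 3 (median -1.09), and of 7 tested mesothelial markers 7 (median -1.94). The summed mesothelial signal was 649.3 to 1632 in dysplasia, 4908 to 6308 in transgenic and 5696 to 7180 in non-transgenic tissue. Of 11 fibroblast markers 6 were lower (median -0.84), of 7 smooth muscle and pericyte markers 5 (-0.86), of 6 heart muscle markers 1 (-0.92) and of 7 macrophage markers 6 (-0.70), with none higher. Of 5 club cell markers 3 were higher (median 1.20) and of 3 tested ciliated cell markers 3 (1.25), with none lower. Against non-transgenic tissue these counts differed: of the 7 macrophage markers 2 were lower and 1 higher (median 0.01), of the club cell markers 0 were higher (median 0.45) and of the ciliated cell markers 2 (median 0.80). The part of these cell types in the values of Cav1, Cav2, Clic5, Akap5, Hopx and Rtkn2 was not tested.

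**Figure D5:**
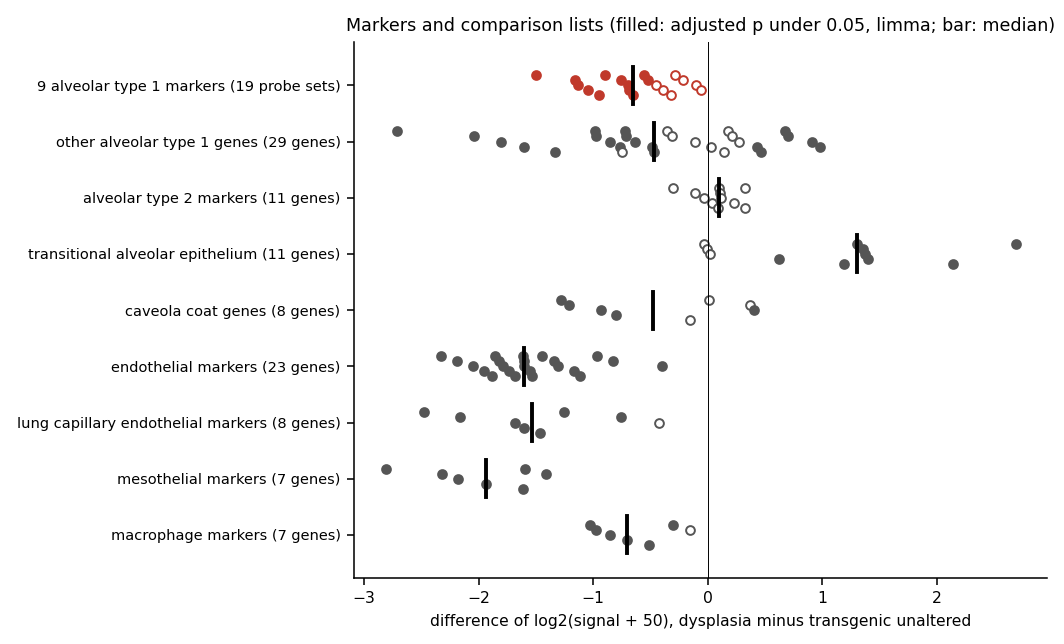
Difference of log2(signal + 50), dysplasia minus transgenic tissue, for the 19 marker probe sets (red) and the brightest tested probe set of each gene in 8 comparison lists (grey); filled points had a limma adjusted p under 0.05 and bars are medians. The marker median, over probe sets with several for some genes, was -0.65. The list medians, with 1 probe set per gene, were 1.30 for transitional epithelium, 0.10 for type 2 markers and -0.47 for other type 1 genes. They were -0.48 for the caveola coat, -0.70 for macrophage, -1.53 for lung capillary, -1.60 for endothelial and -1.94 for mesothelial markers.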

How the data were processed

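Total RNA (175 ng) from laser-microdissected lung was amplified, labelled and hybridised to Affymetrix Mouse Genome 430 2.0 arrays. The deposited values are intensity signals on a linear scale, which the authors computed with GCOS and scaled to a common target of 500 (per the labels and methods, without a software version). All 15 arrays of the 3 groups were read as deposited, after 64 of 45101 probe sets (controls) were removed. Array signals carry no read depth, so the number of arrays, 5 per group, limits the precision. The study's methods name 5 transgenic and 5 non-transgenic mice as the sources, with dysplasia and unaltered tissue of 1 mouse taken as a pair. Group means were compared on log2(signal + 50) with limma 3.58.1 in R 4.3.3 (lmFit, eBayes, two-sided) over the 10 arrays of a comparison, without pairing. The 21658 probe sets whose signal averaged above 100 over all 15 arrays were tested, with Benjamini-Hochberg adjustment over all of them and a threshold of 0.05. The study's methods used SAM, which was not run here. Log2 changes are on the log2(signal + 50) scale and understate those of dim probe sets. Marker signal relative to Ager was tested by exact permutation of arrays.

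Genes were named through the platform annotation. The named genes are all member probe sets, up to 4 genes with the smallest p of each of 18 lists, and the 3 most similar probe sets of each member, with Aqp5 and Krt7, chosen after their values were seen. The members and lists were chosen with earlier results of these data known. Same-numbered arrays deviated together in the comparison of dysplasia with transgenic tissue (correlations 0.732, 0.773, 0.625, 0.219 and 0.71 for numbers 1 to 5) and in that of transgenic with non-transgenic tissue (0.461, 0.55, 0.322, 0.135 and 0.793). In the first comparison 10 of 10 arrays correlated best with the array of their own number, and in the other 4 of 10. In that of dysplasia with non-transgenic tissue 5 of 10 did so. Only the numbers of the first comparison were taken to pair the arrays, although same-numbered arrays of different mice also deviated together. What those arrays shared was not tested. The pairing of the first comparison also comes from the labels, which place both tissues in the same mouse. The number 4 arrays, whose Xist and Eif2s3y signals go against this, were kept as a pair in the replicate block and within-number values. The block was not run without them. Alternatives were another offset, signal limit and scaling, a fit of all groups, the array number as a block, Xist and the actin ratio as covariates, and left-out arrays.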

Additional observations from a re-analysis of the deposited data

Results flagged for a closer look

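In each group of 5 arrays, the gap between the most extreme array and its nearest neighbour was set against the whole range of the group, with 0.71 as the limit of Dixon's test. This was done for 57 groups of marker values, of which chance passes about 5%, and 7 passed.

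On dysplasia 1, Ager 1420428_at had a signal of 15690 against 11170 to 12210 on the other arrays (gap over range 0.738). On dysplasia 2, Pdpn had 4689 against 6242 to 6509 (0.872). On transgenic 1, Akap5 1447301_at had 281.6 against 548.2 to 698.4 (0.725). On transgenic 4, Cav2 1417327_at had 17670 against 13470 to 14090 (0.834). On non-transgenic 3, Clic5 1439505_at had 10000 against 8381 to 8764 (0.747). Emp2 1425273_s_at was low on array 5 of both control tissues, with 179.6 against 687.4 to 972.2 in transgenic (0.781) and 292.7 against 802 to 1007 in non-transgenic tissue (0.808). These were also the arrays with the lowest actin 5′ over 3′ ratio, 12.5% and 14.1%.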

How the results depend on the processing

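Against transgenic tissue 12 marker probe sets were lower, and 10 to 15 under the alternatives. Against non-transgenic tissue 12 were lower, and 10 to 16 under the alternatives. For transgenic against non-transgenic tissue 0 were lower under every alternative run. Calls over all probe sets tested, in either direction, moved too. Against transgenic tissue they were 10661 with the replicate block (15 markers lower) and 5872 without the number 5 arrays (10 lower), beside 7192. Against non-transgenic tissue they were 11060 with the actin covariate (16 lower) and 8461 without non-transgenic 3 (10 lower), beside 9523. How many were lower was not counted under the alternatives, so these counts have no matching background. None of 454 single values per comparison changed direction to a called opposite sign, 15 calls were lost and 13 gained in the first comparison, 9 were lost and 14 gained in the second, and 0 changed in the third. With the replicate block 15 probe sets were lower against transgenic tissue, where Pdpn, Clic5 1458381_at and Emp2 1433670_at were added. Against non-transgenic tissue 15 were lower, beside 10741 of all tested called in either direction. There the same-numbered arrays came from different mice but mostly deviated together (correlations 0.439, 0.603, 0.261, -0.00366 and 0.727). Their mean was 0.405, beside -0.0995 for arrays of different numbers. The block added Clic5 1458381_at (limma adjusted p = 0.00536), Clic5 1431261_at (0.0223) and Emp2 1425273_s_at (0.0108) there. It changed no other call in either comparison. Quantile normalization added Pdpn (limma adjusted p = 0.0144) and Emp2 1433670_at (0.0026) against transgenic and Pdpn (0.0318) against non-transgenic tissue. Scaling to the same total signal added Pdpn (limma adjusted p = 0.0381) and Emp2 1433670_at (0.0326) against transgenic tissue, and a fit of all 3 groups added Pdpn (0.0448) there and Clic5 1431261_at (0.0442) against non-transgenic tissue. The actin ratio as a covariate also added Clic5 1458381_at in both comparisons (limma adjusted p = 0.0194 and 0.0102) and Clic5 1431261_at in the second (0.00434). With no signal limit Akap5 1436142_at missed the threshold against transgenic tissue (limma adjusted p = 0.0581). The count of markers whose difference from Ager passed, 4 against transgenic tissue, was 7 after quantile normalization, 7 without the number 1 arrays, 4 to 7 with 1 array left out, and 0 without the number 5 arrays or without dysplasia 4 and transgenic 2. Against non-transgenic tissue it was 6, 6 to 7 with 1 array left out, and 0 without the number 5 arrays. Between the control tissues it was 0, 0 to 1 with 1 array left out, where transgenic 3 made the difference, and 3 with the second Ager probe set as the reference. Sign flips within array numbers, as a replicate block, gave 0 in each comparison, since their smallest p is 0.0625. With 4 arrays against 4 no p can be below 0.0286, so that adjusted values pass only where many of the 24 tests reach it. Leaving out the number 5 or number 1 arrays, or dysplasia 4 with transgenic 2, the second Ager probe set and the sign flips were chosen after seeing the data. Xist as a covariate added 1 call, Clic5 1431261_at against non-transgenic tissue (limma adjusted p = 0.0224).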
